A study of Mus musculus with 24 samples.

Results

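The 32 genes described here encode the enzymes of glycolysis, the main carriers of glucose and lactate, the glycerol phosphate shuttle and the entry to the pentose phosphate pathway. They were taken by name from the 50686 genes of the count tables. Each of the 32 matched 1 gene identifier, and all 32 were among the 21657 genes that passed the filter on low counts. Stranded mRNA sequencing was done on C57BL/6 mouse tissue that carries the label back left brain. The knockout, labelled Pank1-/-Syn-Pank2-/- and called dKO here, was compared with wild type (WT) at day 20 and at day 10 in males and females. The labels spell out neither Syn nor the event from which the days are counted. The 8 groups held 3 libraries each, 24 in all. The labels number no replicates, so the replicate numbers used here follow the order in which the libraries are listed and only name a library. The library called dKO male day 10 replicate 3 had 45964 gene counts and was left out by the rule that a library holds at least 1000000 gene counts, so dKO had n = 6 at day 20 and n = 5 at day 10, with 2 males, and WT had n = 6 at each day.

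Neurons and glia take up glucose through facilitative carriers and split it to pyruvate in the cytosol. Pyruvate is burnt in mitochondria or turned to lactate, which leaves and enters cells through monocarboxylate carriers. Pank1 and Pank2 encode pantothenate kinases, which start the synthesis of coenzyme A, the cofactor that receives the acetyl group of pyruvate. Many steps are run by isoenzymes from separate genes, and the brain shifts between them as it matures: Aldoc is typical of astrocytes, Eno2 of neurons, Ldha of tissue that makes lactate and Ldhb of oxidative tissue.

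Gene counts were 9.19 to 44.7 M (mega) per library in the 23 libraries kept. Pank1 averaged 7.49 ± 0.46 CPM in dKO against 22.7 ± 2.34 CPM in WT at day 20, and 8.13 ± 0.67 CPM in dKO against 22.7 ± 1.64 CPM in WT at day 10 (CPM, counts per 1000000 gene counts, mean ± SD). These values bear on Pank1 only, and the level of Pank2 is not given here. Markers of neurons, astrocytes and oligodendrocytes were present in every group, with none at 0. The pieces of tissue differed in position at day 10: the sum of 7 hindbrain Hox genes was 0.0558 CPM in dKO male day 10 replicate 2, 85.3 CPM in dKO female day 10 replicate 2 and 1.82 CPM in WT male day 10 replicate 1, whereas at day 20 it was 20.6 to 28.6 CPM in dKO and 19.0 to 30.1 CPM in WT. Results for day 10 are therefore also given without both libraries low in Hox genes. Sums of 8 cerebellar markers were 378 to 1497 CPM in dKO and 974 to 2267 CPM in WT at day 10. At day 20 they were 1714 to 1936 CPM in dKO and 1419 to 2001 CPM in WT. The 2 libraries low in Hox genes held 378 CPM (dKO male day 10 replicate 2) and 2267 CPM (WT male day 10 replicate 1). None of the 8 was called between genotypes. Sums of 7 forebrain markers were 51.8 to 61.9 CPM in dKO and 43.3 to 49.1 CPM in WT at day 20, without overlap. At day 10 they were 25.6 to 67.8 CPM in dKO and 24.5 to 43.5 CPM in WT. Of the 6 forebrain markers tested, 2 rose and none fell at day 10, when 3.88% of all genes rose. At day 20, 1 fell and none rose. The part of position in the day 20, day 10, interaction and between-day results was not tested. At day 20, 8 of 10 endothelial, 7 of 7 erythrocyte and 8 of 10 microglial markers fell in dKO and none of them rose, with summed levels of 227 to 271 CPM in dKO against 326 to 342 CPM in WT for endothelial cells, 75.9 to 131 CPM in dKO against 320.5 to 677 CPM in WT for erythrocytes and 102 to 156 CPM in dKO against 175 to 209 CPM in WT for microglia. Of the meningeal fibroblast markers 6 of 7 fell and none rose, with sums of 136 to 183 CPM in dKO and 205 to 299 CPM in WT, and of the pericyte and smooth muscle markers 5 of 8 fell and 1 rose, with sums of 149 to 174 CPM in dKO and 222 to 263 CPM in WT. Among oligodendrocyte markers 4 of 10 fell and none rose at day 20, with sums of 12042 to 15412 CPM in dKO and 15757 to 20531 CPM in WT. Of the astrocyte markers 3 of 10 rose and 3 fell, with sums of 4423 to 5020 CPM in dKO and 4967 to 5252 CPM in WT. Of the neuronal markers 2 of 11 fell and none rose. Their sums were 4204 to 4762 CPM in dKO and 4800 to 4950 CPM in WT, without overlap. Of the choroid plexus markers 3 of 7 fell and none rose, and of 5 oligodendrocyte precursor markers 1 rose and 2 fell. Of all genes tested, 19.4% rose and 19.5% fell at day 20, and the neuronal count is near that share. In whole tissue, fewer cells of a type and less RNA per cell cannot be told apart. Whether the libraries of a group stem from different animals is not stated in the labels, so the tests describe how these libraries vary.

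The promoter windows of 4 genes at the carrier and lactate steps are shown because Slc2a1 rose, Ldha and Slc16a1 fell and Ldhb was not called in dKO at day 20. The sequences run from 250 bases before to 50 after the transcript start in RefSeq on GRCm38.p6, 5′ to 3′ on the strand of the gene. Capitals mark ACGTG on either strand, a form of the core of the hypoxia response element. The form GCGTG, which the Ldhb window holds too, was neither marked nor counted. Ldha lies at chr7:46845554-46845853 on the plus strand, Ldhb at chr6:142507908-142508207 on the minus strand, Slc2a1 at chr4:119108495-119108794 on the plus strand and Slc16a1 at chr3:104638414-104638713 on the plus strand.
Ldha: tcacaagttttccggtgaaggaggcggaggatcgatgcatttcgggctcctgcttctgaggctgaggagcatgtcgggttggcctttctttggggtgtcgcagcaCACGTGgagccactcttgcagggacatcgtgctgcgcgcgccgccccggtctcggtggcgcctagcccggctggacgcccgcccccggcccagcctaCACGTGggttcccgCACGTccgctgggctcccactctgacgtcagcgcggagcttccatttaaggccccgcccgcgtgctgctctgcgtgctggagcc
Ldhb: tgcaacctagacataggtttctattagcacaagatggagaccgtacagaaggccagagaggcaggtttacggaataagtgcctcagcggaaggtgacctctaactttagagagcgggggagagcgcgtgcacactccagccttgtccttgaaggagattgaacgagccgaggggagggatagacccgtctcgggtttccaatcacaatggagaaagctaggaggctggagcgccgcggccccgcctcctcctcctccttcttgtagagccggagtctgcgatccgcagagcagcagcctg
Slc2a1: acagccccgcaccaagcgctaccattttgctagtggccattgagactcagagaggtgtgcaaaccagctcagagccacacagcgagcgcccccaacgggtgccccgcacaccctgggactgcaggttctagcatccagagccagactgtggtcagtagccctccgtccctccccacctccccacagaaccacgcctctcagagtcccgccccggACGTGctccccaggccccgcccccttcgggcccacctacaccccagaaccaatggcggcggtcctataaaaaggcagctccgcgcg
Slc16a1: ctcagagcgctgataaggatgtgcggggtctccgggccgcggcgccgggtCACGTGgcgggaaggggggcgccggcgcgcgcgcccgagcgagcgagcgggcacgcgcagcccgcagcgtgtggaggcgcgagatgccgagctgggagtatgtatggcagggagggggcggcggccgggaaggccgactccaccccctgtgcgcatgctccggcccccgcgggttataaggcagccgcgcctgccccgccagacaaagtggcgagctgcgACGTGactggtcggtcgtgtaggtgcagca
Ldha has 2 windows, and the one shown was picked for holding the most copies of ACGTG. The other genes shown have 1 window each. The end of the Ldha window shown was found in no Ldha transcript of GENCODE, whereas that of the other Ldha window was. The Ldha window shown holds ACGTG 5 times over both strands, 4 of them within 2 copies of the palindrome CACGTG. It also holds 1 copy of the cyclic AMP response element TGACGTCA in lower case. The Ldhb window holds none of the 3 motifs, the Slc2a1 window holds ACGTG once, and the Slc16a1 window holds it 3 times with 1 copy of CACGTG. Of the 32 genes, 29 had a window in the table, 48 windows in all because some genes have several starts. ACGTG on either strand was in 21 of these 48 windows (43.8%), against 6447 of all 32851 windows (19.6%). CACGTG was in 6 of 48 (12.5%) against 7.15% of all windows, TGACGTCA in 1 of 48 (2.08%) against 1.79%, and the glucocorticoid response element in 0 of 48 against 0.475%. The 17 genes with ACGTG included Ldha, Slc16a1, Pgk1 and Gapdh, which fell in dKO at day 20, Slc2a1 and Pfkfb2, which rose, and Hk1 and Pfkm, which were not called.

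At day 20, to ask which transcripts of the pathway differed between knockout and control, the dKO and WT libraries of both sexes were compared. Of the 32 genes, 19 were called at an adjusted p under 0.05 (59.4%), and 38.8% of all genes tested were called. The genes that fell were 16, against 19.5% of all genes, and the genes that rose were 3, against 19.4% of all genes. The median log2 change was -0.16 over the 32 genes and -0.0004 over all genes tested. The libraries of the 2 genotypes did not overlap, with every dKO library lower, for 11 of the 32 genes, which was so for 10.3% of all genes, and with every dKO library higher for 1 gene, Pfkfb2, which was so for 9.79% of all genes. The steepest fall, that of Slc16a7, left 0.596 of the WT level.

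**Figure D1:**
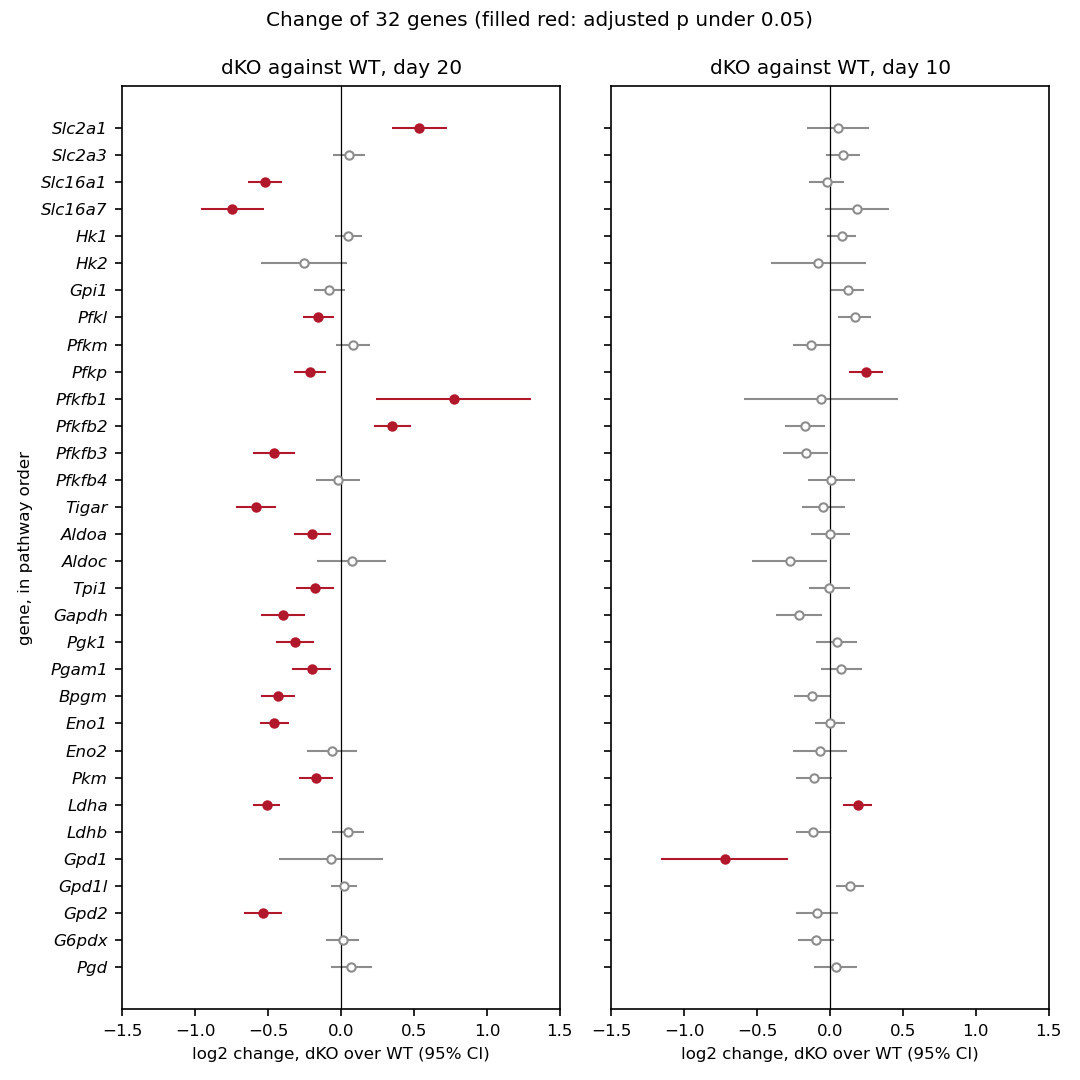
Fitted log2 change of each gene, dKO over WT, at day 20 (left) and day 10 (right), with its 95% confidence interval and the genes in pathway order down the page. Filled red points passed an adjusted p of 0.05: 19 at day 20, of which 16 lie left of 0, and 3 at day 10.

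The carriers moved apart. Slc2a1 (ENSMUSG00000028645, chromosome 4, 119108711 to 119137983, plus strand) encodes GLUT1, the glucose carrier of the blood-brain barrier and of astrocytes. It ran from 101 to 139 CPM in dKO (median 127) and from 74.8 to 104 CPM in WT (median 82.3). Only the highest WT library, a male, reached into the dKO range. The log2 change was 0.53 ± 0.09 (SE), 1.45-fold, with an adjusted p of 9.9e-05. Endothelial markers fell over the same libraries, as given above, and their part in this value was not tested. Slc2a3, the neuronal carrier GLUT3, differed by 0.05 ± 0.05 on the log2 scale (adjusted p = 0.457, 95% CI -0.06 to 0.16).

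Both lactate carriers fell. Slc16a1 (ENSMUSG00000032902, chromosome 3, 104638668 to 104658462, plus strand) encodes MCT1, found in endothelial cells and oligodendrocytes. Its levels were 45.2 to 64.2 CPM in dKO (median 55.7) and 70.5 to 87.1 CPM in WT (median 79.1), with no overlap. It fell by 0.52 on the log2 scale (SE 0.06, adjusted p = 2.58e-07). Endothelial and oligodendrocyte markers fell over the same libraries, as given above, and their part in the Slc16a1 value was not tested. Slc16a7 (ENSMUSG00000020102, chromosome 10, 125219270 to 125389465, minus strand) encodes MCT2, the high-affinity carrier of neurons. It ranged from 17.9 to 37.6 CPM in dKO (median 28.7) and from 42.6 to 50.7 CPM in WT (median 46.3), again with no overlap. Its log2 change of -0.75 ± 0.10 was the greatest fall among the 32 genes (adjusted p = 1.09e-05). As given above, the neuronal marker sum was lower in every dKO library than in every WT library. The part of that sum in the Slc16a7 value was not tested.

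**Figure D2:**
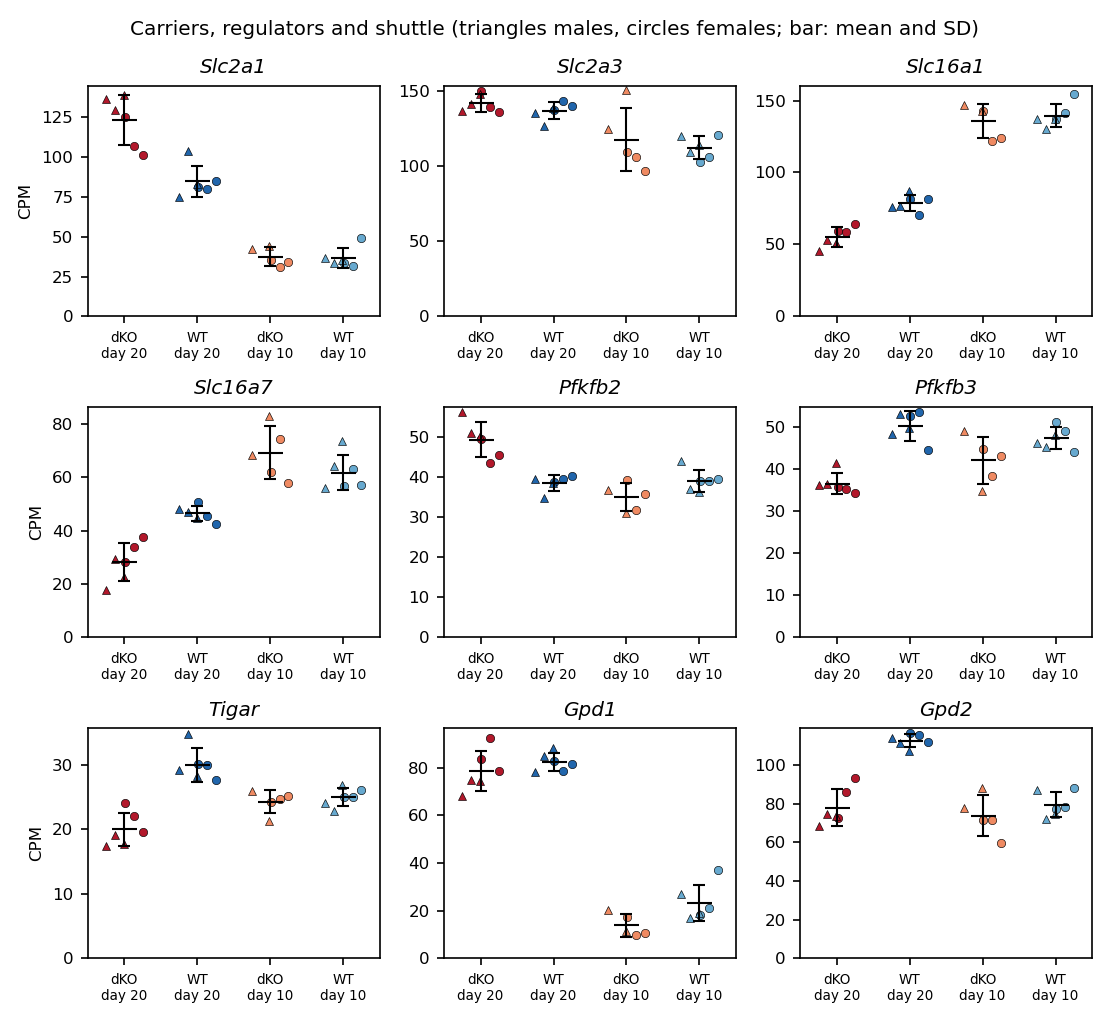
Normalised level in CPM (y axis, linear) of the 4 carriers, 3 regulators of fructose 2,6-bisphosphate and 2 shuttle genes in each library, grouped by genotype and day; triangles are males, circles females, bars the mean and SD. At day 20 all 6 dKO libraries lie below all 6 WT libraries for Slc16a1, Slc16a7, Pfkfb3, Tigar and Gpd2.

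Of the 6 genes for the hexose steps, 2 fell and 4 were not called. The hexokinases, which trap glucose as glucose 6-phosphate, were not called: Hk1 differed by 0.05 ± 0.04 (adjusted p = 0.404) and Hk2, at a mean of 9.64 CPM in dKO and 11.6 CPM in WT, by -0.26 ± 0.14 (adjusted p = 0.162). Gpi1, the isomerase, differed by -0.08 ± 0.05 (adjusted p = 0.229). Among the subunits of phosphofructokinase, the committed step, Pfkp fell by 0.21 on the log2 scale (SE 0.05, adjusted p = 0.00303). Its libraries held 232 to 261 CPM in dKO (median 244) and 272 to 291 CPM in WT (median 286). Pfkl, the liver subunit, fell by 0.16 (SE 0.05, adjusted p = 0.0192), and its call was lost without any 1 of 3 libraries, with changes of -0.14 to -0.13. The value for the muscle subunit Pfkm was 0.08 ± 0.06 (adjusted p = 0.286).

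The 5 genes that set fructose 2,6-bisphosphate, the activator of phosphofructokinase, moved both ways. Pfkfb3 (ENSMUSG00000026773, chromosome 2, 11471433 to 11554077, minus strand) encodes the isoform with the strongest kinase activity. It was at 34.3 to 41.3 CPM in dKO (median 35.9) and 44.5 to 53.4 CPM in WT (median 51.1), and fell by 0.46 on the log2 scale (SE 0.07, adjusted p = 2.05e-05). Pfkfb2 (ENSMUSG00000026409, chromosome 1, 130689182 to 130729253, minus strand), best known from heart, went the other way. It held 43.4 to 56.1 CPM in dKO (median 49.7) and 34.6 to 40.2 CPM in WT (median 39.0), and rose by 0.35 (SE 0.06, adjusted p = 9.8e-05). Every dKO library was thus higher in Pfkfb2 and lower in Pfkfb3 than every WT library. Pfkfb1, the liver isoform, rose by 0.77 (SE 0.26, adjusted p = 0.0208) at a low level of 1.21 ± 0.42 CPM in dKO and 0.68 ± 0.22 CPM in WT. That call was lost without any 1 of 5 libraries, with changes of 0.64 to 0.69. Pfkfb4 differed by -0.02 ± 0.07. Tigar (ENSMUSG00000038028, chromosome 6, 127085116 to 127109557, minus strand), a p53-induced phosphatase of fructose 2,6-bisphosphate, held 17.4 to 24.1 CPM in dKO (median 19.3) and 27.6 to 34.8 CPM in WT (median 29.5). It fell by 0.58 (SE 0.07, adjusted p = 4.41e-07), and the ranges did not overlap.

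Below the hexose steps, each enzyme called was lower in dKO. Aldoa, the aldolase of most tissues, fell by 0.20 (SE 0.06, adjusted p = 0.013), with 570.4 to 702 CPM in dKO and 688 to 759 CPM in WT. Aldoc, the astrocyte form, differed by 0.07 ± 0.11 (adjusted p = 0.662). Tpi1, which interconverts the triose phosphates, fell by 0.18 (SE 0.06, adjusted p = 0.0284); the call was lost without any 1 of 6 libraries, with changes of -0.18 to -0.15.

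Of the 7 genes of the payoff phase, in which ATP and NADH are made, 6 fell and Eno2 was not called. Gapdh (chromosome 6, 125161715 to 125166467, minus strand), the NAD-reducing dehydrogenase, was at 378 to 484 CPM in dKO (median 472) and 559 to 611 CPM in WT (median 599). It fell by 0.40 (SE 0.07, adjusted p = 0.000136). Reads that match several places were not counted, so the levels of Gapdh and Eno1, which have near-identical copies elsewhere in the genome, are uncertain. Pgk1, which makes the first ATP, held 107 to 135 CPM in dKO (median 119.8) and 138 to 166 CPM in WT (median 149.6), and fell by 0.32 (SE 0.06, adjusted p = 0.000361). Neither gene showed any overlap between the genotypes. Pgam1, the mutase, fell by 0.20 (SE 0.06, adjusted p = 0.0144). Bpgm, which makes the 2,3-bisphosphoglycerate of red cells, had 33.9 to 44.4 CPM in dKO (median 40.4) and 50.1 to 57.9 CPM in WT (median 52.2), without overlap, and fell by 0.43 (SE 0.06, adjusted p = 4.03e-06). All 7 erythrocyte markers fell over the same libraries, and their part in the Bpgm value was not tested.

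The last steps repeated a split between isoenzymes. Eno1 (ENSMUSG00000063524, chromosome 4, 150236721 to 150248879, plus strand), the enolase of most tissues, was at 213 to 251 CPM in dKO (median 242) and 309.9 to 345 CPM in WT (median 322). It fell by 0.46 (SE 0.05, adjusted p = 1.73e-07), whereas the neuronal Eno2 differed by -0.06 ± 0.08 (adjusted p = 0.589). Pkm, pyruvate kinase, fell by 0.17 (SE 0.06, adjusted p = 0.0172), with 623 to 731 CPM in dKO and 709.9 to 798 CPM in WT; its call was lost without WT male day 20 replicate 2 (-0.15). Ldha (ENSMUSG00000063229, chromosome 7, 46841475 to 46855627, plus strand), the lactate dehydrogenase subunit of glycolytic tissue, held 62.7 to 78.8 CPM in dKO (median 69.0) and 91.2 to 102 CPM in WT (median 99.1). It fell by 0.51 (SE 0.05, adjusted p = 2.37e-08), the smallest p among the 32 genes. Ldhb, the subunit of oxidative tissue, differed by 0.05 ± 0.05 (adjusted p = 0.518, 95% CI -0.06 to 0.16).

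**Figure D3:**
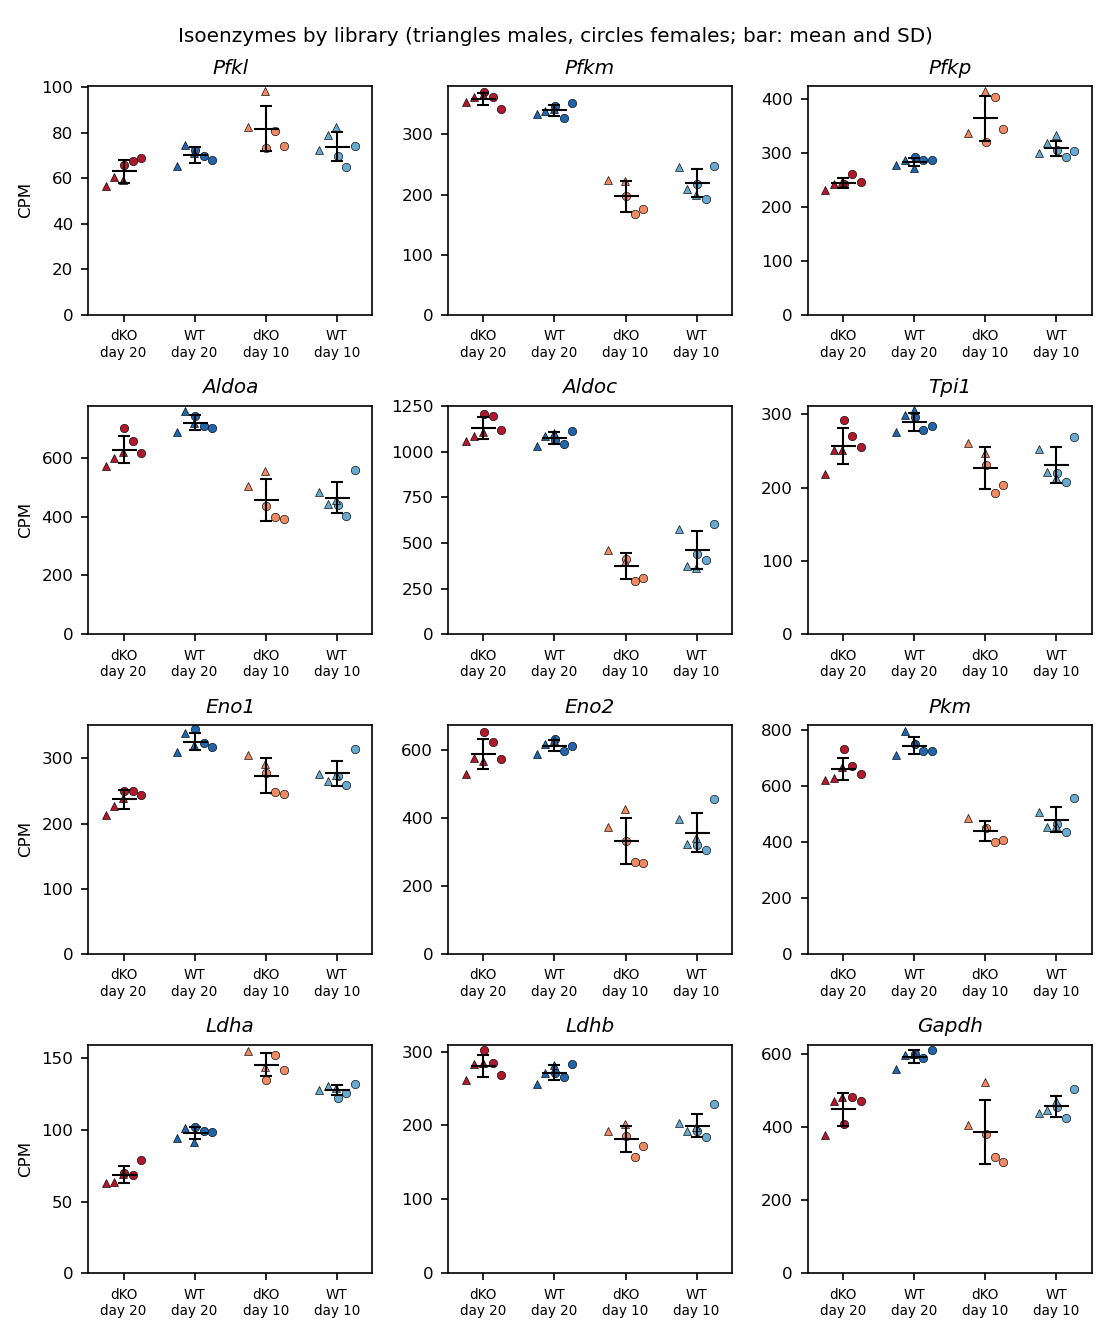
Normalised level in CPM (y axis, linear) of 12 enzyme genes in each library, grouped by genotype and day; triangles are males, circles females, bars the mean and SD. Ldha, Eno1 and Gapdh of dKO lie below all WT libraries at day 20, while Ldhb and Eno2 overlap.

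In the glycerol phosphate shuttle, which carries NADH electrons into mitochondria, the mitochondrial dehydrogenase Gpd2 (ENSMUSG00000026827, chromosome 2, 57237635 to 57370719, plus strand) was at 68.2 to 93.0 CPM in dKO (median 73.9) and 107 to 116 CPM in WT (median 113). It fell by 0.54 (SE 0.06, adjusted p = 9.79e-07). The cytosolic Gpd1 and Gpd1l differed by -0.07 ± 0.17 and 0.02 ± 0.04. At the pentose phosphate entry, G6pdx differed by 0.01 ± 0.06 and Pgd by 0.07 ± 0.07. None of these 4 values passed the test.

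Within isoenzyme families, levels were set beside each other per kb of exon, as a description. The divisor was all annotated exon bases of a gene, 13401 for Pfkp, 6675 for Pfkl and 3340 for Pfkm, and 3310 for Ldha and 1570 for Ldhb. Such bases can exceed the length of a transcript. The shares therefore compare libraries and do not settle how much of a family each gene makes up. Shares of genes with near-identical copies, such as Eno1, carry the uncertainty of their levels given above. Ldha made up 10.4 ± 0.93% of Ldha and Ldhb together in dKO and 14.6 ± 0.74% in WT at day 20, and 27.6 ± 2.47% in dKO and 23.4 ± 1.08% in WT at day 10. The share was thus lower in dKO at day 20 and higher in dKO at day 10. Eno1 made up 26.1 ± 0.81% of the 2 enolases in dKO and 31.7 ± 0.62% in WT at day 20, and 42.1 ± 2.92% in dKO and 40.7 ± 2.31% in WT at day 10. Of the CPM per kb of Pfkl, Pfkm and Pfkp, Pfkm made up 79.5 ± 0.92% in dKO and 76.3 ± 0.59% in WT at day 20. At day 10 it made up 59.9 ± 3.79% in dKO and 65.7 ± 2.88% in WT. At day 20 the ranges of dKO and WT did not overlap in these 3 shares, nor in those of Aldoa, Pfkp, Pfkfb2 and Pfkfb3. They overlapped for Pfkl, Hk2, Slc2a1 and Slc16a1. The shares were not tested and follow from the levels of the single genes. Of the 2 glucose carriers, Slc2a1 made up 64.0 ± 2.73% in dKO and 56.0 ± 3.50% in WT at day 20, and 39.9 ± 2.16% in dKO and 40.2 ± 2.82% in WT at day 10. Among the 4 Pfkfb genes, Pfkfb3 held 30.8 ± 2.01% in dKO and 41.6 ± 1.82% in WT at day 20. Per kb of all annotated exon bases, the highest value of the 32 genes at day 20 was that of Aldoc. It was 346 ± 18.1 CPM per kb in dKO and 329 ± 10.0 in WT. The lowest was that of Pfkfb1, at 0.302 ± 0.104 in dKO and 0.169 ± 0.056 in WT. All exon bases of a gene can exceed the length of its transcript (4133 bases for Gapdh). The Gapdh and Eno1 levels are also uncertain, so these values do not settle which transcript was most abundant.

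**Figure D4:**
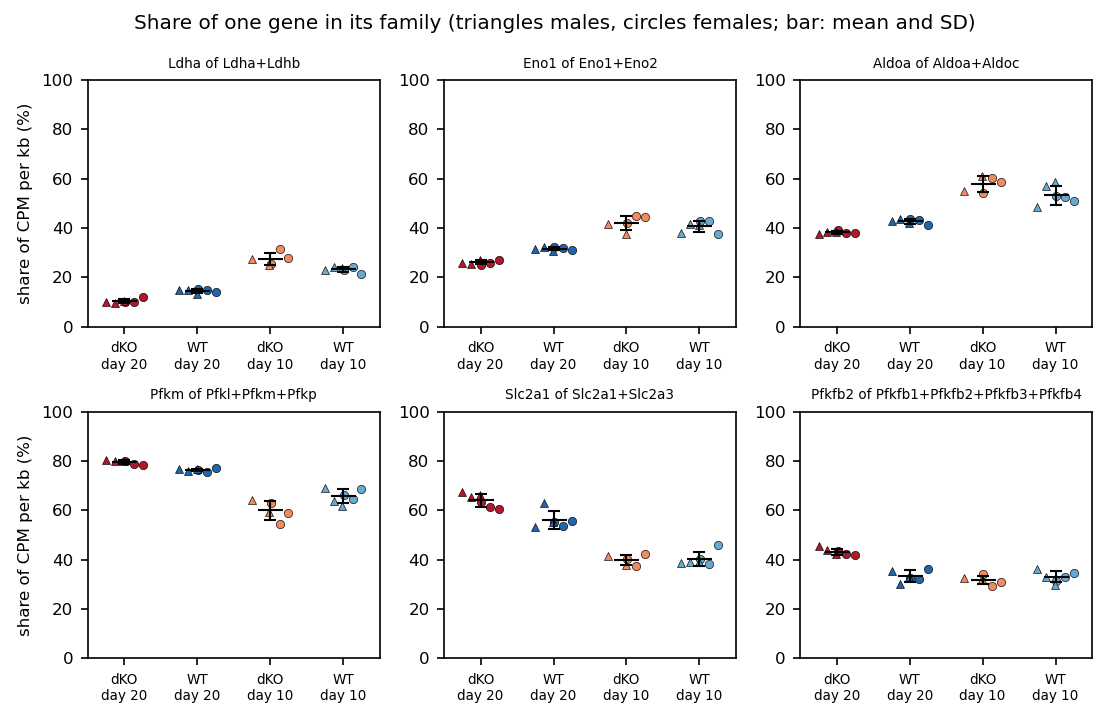
Share (y axis, percent of CPM per kb of exon) of 1 gene within its isoenzyme family in each library, grouped by genotype and day; triangles are males, circles females, bars the mean and SD. Ldha, Eno1 and Aldoa take smaller shares at day 20 than at day 10 in both genotypes.

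The 2 sexes were compared at day 20 because the design was split by sex. In males 19 of the 32 genes were called, 3 higher and 16 lower, against 35.3% of all genes tested, 17.8% higher and 17.5% lower. In females 10 were called, 1 higher and 9 lower, against 10.7% of all genes, 5.33% higher and 5.37% lower. The 10 genes of the female comparison were Slc2a1, which rose, and Slc16a1, Slc16a7, Pfkfb3, Tigar, Gapdh, Bpgm, Eno1, Ldha and Gpd2, which fell. Each of these 10 was also called in males, in the same direction. The change of Slc16a7 was -1.01 ± 0.15 in males and -0.48 ± 0.14 in females. That of Bpgm was -0.61 ± 0.08 in males and -0.26 ± 0.08 in females, and that of Slc16a1 was -0.69 ± 0.08 in males and -0.36 ± 0.08 in females. The genotype by sex interaction was called for none of the 32 genes by edgeR, DESeq2 or limma-voom, and for 0% of all genes by edgeR. At an unadjusted p under 0.05 it named 5 genes, Slc16a7 (-0.52 ± 0.20, male minus female, adjusted p = 0.235), Bpgm (-0.35 ± 0.11, adjusted p = 0.153), Tigar (-0.35 ± 0.13, adjusted p = 0.208), Slc16a1 (-0.33 ± 0.11, adjusted p = 0.174) and Gpd1l (-0.24 ± 0.09, adjusted p = 0.183). With only the day 20 groups fitted, Bpgm was called, and over all genes the interaction was then called for 528 genes with a positive and 563 with a negative value. Over all genes DESeq2 called 180 positive and 160 negative. The count for females was 6 without dKO female day 20 replicate 1.

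At day 10, the same comparison asked how early the genes differed. Of the 32 genes, 3 were called (9.38%), and 5.79% of all genes tested were called. They were 2 that rose, against 3.88% of all genes, and 1 that fell, against 1.91% of all genes. The median log2 change was -0.01 over the 32 genes and 0.01 over all genes. At an unadjusted p under 0.05 there were 11 genes. Pfkp rose by 0.25 (SE 0.06, adjusted p = 0.0205), with 320.0, 344, 338, 403 and 415 CPM in dKO and 292 to 332 CPM in WT (median 304). The 2 highest dKO libraries were those that stood apart in Hox genes, and without dKO male day 10 replicate 2 the change was 0.15 and not called. Ldha rose by 0.19 (SE 0.05, adjusted p = 0.0302), with 135, 141, 144, 152 and 155 CPM in dKO and 122 to 132 CPM in WT (median 129). Every dKO library was above every WT library, which was so at day 10 for 1.04% of all genes and for no other of the 32. None of the 32 had every dKO library below every WT library at day 10, which was so for 0.947% of all genes. Gpd1 fell by 0.72 (SE 0.20, adjusted p = 0.0484), with 9.82, 10.4, 11.4, 17.4 and 20.5 CPM in dKO and 16.8 to 37.0 CPM in WT (median 20.1), and the ranges overlapped.

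The 3 calls at day 10 were lost under several alternatives. None remained when both libraries low in Hox genes were left out, when only the day 10 groups were fitted, or when any 1 of dKO female day 10 replicate 2, dKO male day 10 replicate 2 and WT male day 10 replicate 1 was left out. The count was 6 without dKO female day 10 replicate 1, 9 without dKO male day 10 replicate 1, 5 without WT male day 10 replicate 3, and 1 without dKO female day 10 replicate 3 or WT female day 10 replicate 2. Over all 34 alternatives the change was 0.16 to 0.21 for Ldha, 0.14 to 0.31 for Pfkp and -0.98 to -0.42 for Gpd1. Gpd1 is high in oligodendrocytes, of whose 10 markers 4 fell and none rose at day 10, when 1.91% of all genes fell. The sums of these markers were 4172 to 6530 CPM in dKO and 6138 to 12443 CPM in WT. Their part in the Gpd1 value was not tested. In males alone 0 of 32 genes were called by edgeR, DESeq2 and limma-voom, against 0.0139% of all genes by edgeR, and 8 had an unadjusted p under 0.05; without dKO male day 10 replicate 1, 7 were called. In females 1 gene was called, Gapdh (-0.46 ± 0.10, adjusted p = 0.0448), against 0.591% of all genes. The call was lost with no filter, with a filter at a mean of 1 CPM, with the unstranded column, with limma-voom and with only the day 10 groups fitted. Gapdh had 306, 319 and 382 CPM in dKO females and 425, 455 and 506 CPM in WT females at day 10. The median change of the 32 genes was 0.09 in males and -0.12 in females. The interaction with sex was called for 0 genes by edgeR, DESeq2 and limma-voom (0% of all genes by edgeR), with 15 at an unadjusted p under 0.05, and for 5 without dKO male day 10 replicate 1, which leaves 1 dKO male library whose spread is assumed to be that of the other groups.

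The change of the genotype difference between the days was tested directly as an interaction, the day 20 difference minus the day 10 difference. It was called for 15 of the 32 genes, 2 positive and 13 negative, and for 28.7% of all genes, 13.8% positive and 14.9% negative. The positive ones were Pfkfb2 (0.52 ± 0.09, adjusted p = 0.000228) and Slc2a1 (0.48 ± 0.14, adjusted p = 0.0124). The most negative were Slc16a7 (-0.93 ± 0.15, adjusted p = 0.000129), Ldha (-0.70 ± 0.07, adjusted p = 4.66e-07), Tigar (-0.54 ± 0.10, adjusted p = 0.000304), Slc16a1 (-0.50 ± 0.08, adjusted p = 0.000121), Eno1 (-0.46 ± 0.07, adjusted p = 6.26e-05), Pfkp (-0.46 ± 0.08, adjusted p = 0.000175) and Gpd2 (-0.45 ± 0.09, adjusted p = 0.00128). Pgk1 (-0.36), Pfkl (-0.33), Bpgm (-0.31), Pfkfb3 (-0.29), Pgam1 (-0.28) and Gpi1 (-0.20) were also called. The change of Ldha was 0.19 at day 10, a call lost in 9 of 33 alternatives that test for any change, and -0.51 at day 20. Without both libraries low in Hox genes 12 of the 15 remained, and Slc2a1, Pgam1 and Gpi1 were lost. Of the 32 alternatives that test for any change, Gpi1 was not called in 24 (-0.28 to -0.08), Pfkfb3 in 12 (-0.39 to -0.16), Pgam1 in 8 (-0.34 to -0.19) and Slc2a1 in 1, most of them fits without 1 library; the ranges in brackets are over all alternatives. Gapdh, which fell at day 20, gave -0.19 ± 0.10 and did not pass (adjusted p = 0.182).

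The changes between the days themselves were tested within each genotype. In dKO, day 20 differed from day 10 for 25 of the 32 genes, 13 higher and 12 lower, and for 61.6% of all genes, 30.3% higher and 31.2% lower. In WT it also differed for 25, 18 higher and 7 lower, and for 51.4% of all genes, 26.1% higher and 25.3% lower. Gpd1 rose most in both genotypes, by 2.46 ± 0.21 in dKO and 1.81 ± 0.18 in WT. Slc2a1 rose by 1.68 ± 0.10 in dKO, and in WT it rose to 84.7 ± 9.96 CPM at day 20, against 36.8 ± 6.44 CPM at day 10. Aldoc rose by 1.57 ± 0.13 in dKO and 1.22 ± 0.12 in WT. Pfkm rose by 0.84 in dKO and 0.63 in WT, Eno2 by 0.79 in dKO and 0.78 in WT, and Ldhb by 0.60 in dKO and 0.44 in WT. Both lactate carriers and Ldha were lower at day 20 in both genotypes.

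Eno1 changed by -0.23 ± 0.05 in dKO and by 0.23 ± 0.05 in WT, and Tigar by -0.28 ± 0.07 in dKO and by 0.26 ± 0.06 in WT. Both genes were called in both genotypes, in opposite directions. Ldha changed by -1.09 ± 0.05 in dKO and -0.39 ± 0.05 in WT, Slc16a7 by -1.34 ± 0.11 in dKO and -0.40 ± 0.10 in WT, and Slc16a1 by -1.32 ± 0.06 in dKO and -0.82 ± 0.06 in WT. Pfkp changed by -0.58 ± 0.06 in dKO, whereas its WT value of -0.12 ± 0.05 was not called (adjusted p = 0.0613). Gpd2 was not called in dKO (0.05 ± 0.07, adjusted p = 0.517) and rose by 0.50 ± 0.06 in WT. Pfkfb2 rose by 0.50 ± 0.07 in dKO and was not called in WT (-0.02 ± 0.06, adjusted p = 0.762).

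**Figure D5:**
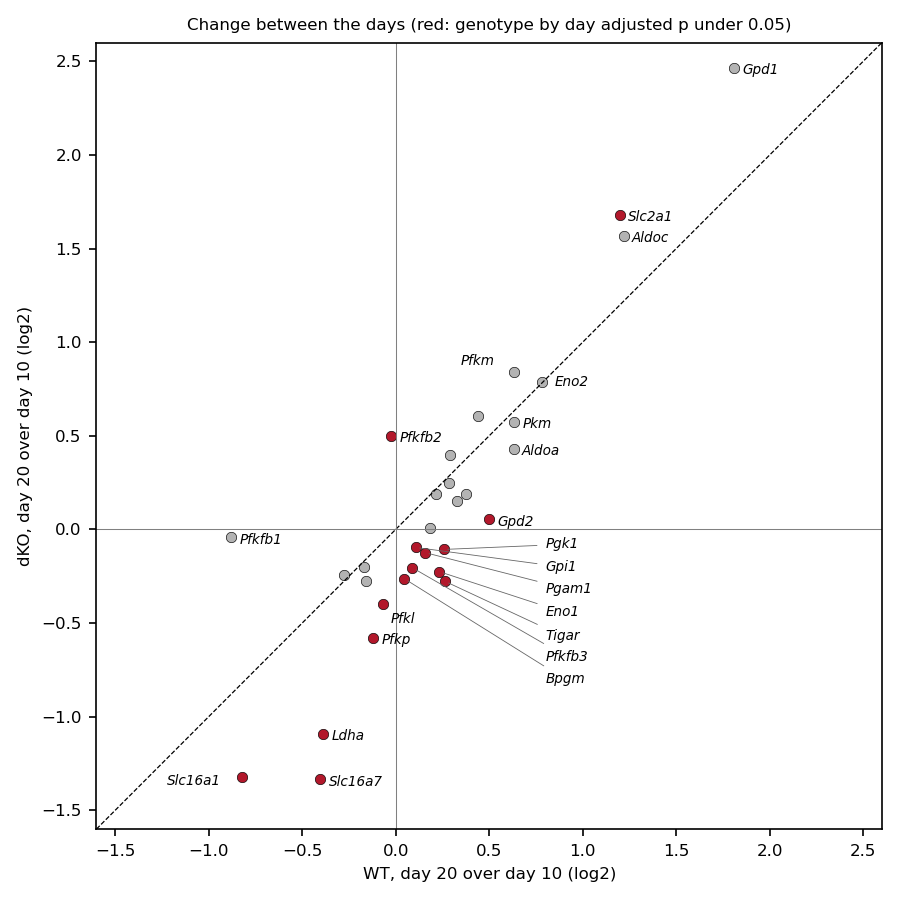
Fitted log2 change of the 32 genes, day 20 over day 10, in dKO (y axis) against WT (x axis), 1 point per gene, with the dashed line marking equal change. Red points are the 15 genes whose genotype by day interaction passed an adjusted p of 0.05; 13 lie below the line, and Pfkfb2 and Slc2a1 above it.

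The neighbouring branches of sugar metabolism were counted at day 20 from lists of genes chosen for their function, where 38.8% of all genes were called. Of 13 other isoenzymes tested, 2 rose and 3 fell, with Eno3, the muscle enolase, at 0.57 ± 0.10 and Eno1b, a near copy of Eno1, at -1.07 ± 0.27. Of 24 glycogen genes, 7 rose and 8 fell, among them Phka2, a phosphorylase kinase subunit (0.61 ± 0.06), and Ugp2, which makes UDP-glucose (-0.44 ± 0.05). Of 5 gluconeogenic genes 2 rose, Pck2 (0.63 ± 0.06) and Slc37a4 (0.33 ± 0.06), and 1 fell, Fbp1 (-1.94 ± 0.67, adjusted p = 0.0234). Of the 8 further pentose phosphate genes 1 rose and 4 fell, led by transaldolase Taldo1 (-0.61 ± 0.06).

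Of 19 other sugar and monocarboxylate carriers, 6 rose and 9 fell, against 19.4% and 19.5% of all genes. Their median log2 change was -0.20. Sums over the list were 469 to 502 CPM in dKO and 530 to 556 CPM in WT. The 4 genes named next are those with the smallest p, and all of them rose. The insulin-responsive Slc2a4 rose by 1.76 (SE 0.15, adjusted p = 1.67e-08), Slc2a9 by 1.22 (SE 0.14), Slc16a12 by 0.91 (SE 0.10) and Slc2a8 by 0.53 (SE 0.06). At pyruvate entry to mitochondria 3 of 14 rose and 5 fell; the kinases that switch off pyruvate dehydrogenase, Pdk4 (1.90 ± 0.25, adjusted p = 1.75e-05) and Pdk2 (0.47 ± 0.08), rose and Pdk3 fell (-0.24 ± 0.06). In the malate-aspartate shuttle 2 of 8 rose, led by Slc25a13 (0.84 ± 0.14), and 1 fell. Of 8 hexosamine and polyol genes 4 rose, led by Sord (0.48 ± 0.06) and Khk (0.63 ± 0.13), and 2 fell.

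Of 28 regulators, 9 rose and 5 fell. Txnip, which restrains glucose uptake and is induced by glucose through Mlx partners, rose by 1.70 (SE 0.12, adjusted p = 5.52e-09), and Mlx fell by 0.41 (SE 0.07). Hif3a, an inhibitory hypoxia-factor subunit, rose by 2.36 (SE 0.11, adjusted p = 5.63e-12). Of 16 hypoxia targets outside glycolysis, 4 rose and 5 fell: Ddit4 (1.09 ± 0.10), Kdm3a (0.61 ± 0.07) and Bhlhe40 (0.60 ± 0.06) rose and P4ha1 (-1.06 ± 0.08) fell. The 4 hypoxia targets named are those with the smallest p. The part of hypoxia factors in these values was not tested.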

How the data were processed

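The deposited tables hold raw counts per gene, 1 table for each of the 24 libraries (TruSeq Stranded mRNA, per the labels' protocols). STAR 2.5.2b, HTSeq and the build GRCm38.p5 are named in the submitters' processing notes, with no gene annotation. The authors' reverse-strand column (column 4) was used, since the forward column held 5.22 to 7.46% as many gene counts; 4 rows that name no gene (58.3 to 62.5% of reads) were left out. GENCODE M21 (GRCm38) matched 50462 of 50686 identifiers and left 224 unmatched. Of the libraries kept, none was a copy of another in its own group (22 pairs).

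In R 4.3.3 with edgeR 4.0.16, 23 libraries were filtered by filterByExpr, scaled by TMM (factors 0.945 to 1.08) and fitted with 1 mean per group (glmQLFit, robust). Contrasts were tested by glmQLFTest, two-sided, with Benjamini-Hochberg adjustment over all 21657 genes, after tests on simulated data. CPM uses TMM-scaled totals. Alternatives included DESeq2 1.42.0 and limma-voom (limma 3.58.1). The members and gene lists were chosen with earlier results of these data known. Full values were given for members called over both sexes with a log2 change of at least 0.3, or called in an interaction, and up to 4 called genes per list. Intervals cover these libraries only.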

Additional observations from a re-analysis of the deposited data

Results flagged for a closer look

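In 128 sets of 1 gene in 1 genotype and day, 7 sets had 1 library far from the others, which chance alone gives in about 1 of 20 sets. WT male day 20 replicate 2 was highest in its set for Slc2a1 (104 CPM) and Tigar (34.8 CPM) and lowest for Pfkfb2 (34.6 CPM). WT female day 10 replicate 3 was highest for Slc2a1 (49.4 CPM), Pgk1 (150.3 CPM) and Eno1 (314 CPM). dKO male day 20 replicate 3 was highest for Pfkfb3 (41.3 CPM), and still below every WT library.

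The genotype difference itself differed between the days, as an interaction on the log2 scale (day 20 minus day 10, edgeR adjusted p under 0.05), for 15 genes. It was positive for Pfkfb2 (0.52) and Slc2a1 (0.48). It was negative for Slc16a7 (-0.93), Ldha (-0.70), Tigar (-0.54), Slc16a1 (-0.50), Eno1 (-0.46), Pfkp (-0.46), Gpd2 (-0.45), Pgk1 (-0.36), Pfkl (-0.33), Bpgm (-0.31), Pfkfb3 (-0.29), Pgam1 (-0.28) and Gpi1 (-0.20). Of 32 alternatives that test for any change, the call was lost in 24 for Gpi1, 12 for Pfkfb3, 8 for Pgam1 and 1 for Slc2a1.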

How the results depend on the processing

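At day 20 over both sexes all 19 calls were kept under RLE and upper-quartile factors, no filter, a filter at a mean of 1 CPM, the unstranded column, DESeq2, limma-voom, all 24 libraries and a fit of only the groups compared; testing for a change above 1.2-fold left 9, and leaving out 1 library gave 16 to 19. No result reversed. In a test against 1.2-fold the other counts were 0 at day 10, 7 for the genotype by day interaction, 9 for males and 1 for females at day 20, 0 for females at day 10, 15 for dKO day 20 against day 10 and 12 for WT. The day 10 count of 3 over both sexes became 1 with no filter, 0 with only the groups compared and 0 without both libraries low in Hox genes (chosen after seeing the data). The count of 1 for females at day 10 became 0 with no filter, a filter at a mean of 1 CPM, the unstranded column, limma-voom and only the groups compared, 5 with DESeq2 and 7 without both libraries low in Hox genes. With only the groups compared, the genotype by sex interaction at day 20 called 1 gene. Leaving out 1 library gave 0 to 9 at day 10, 12 to 17 for the genotype by day interaction, 14 to 19 for males and 6 to 11 for females at day 20, 0 to 7 for males and 0 to 7 for females at day 10, 0 to 5 for the sex interaction at day 10, 22 to 26 for dKO and 23 to 27 for WT between the days. The cause of these shifts was not tested. With the unstranded column the share of Aldoa among the aldolases was lower by more than 1 SD in both genotypes at both days. No paired analysis was possible because the labels give no replicate numbers that join libraries across groups. Where an arm was left with 1 library, its spread was assumed to be that of the other groups. Depth limits Pfkfb1 most, near 1 CPM.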
